A study of Mus musculus with 30 samples.

Results

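The genes described here encode the MAP kinases other than p38 and the kinases that act above them: the ERK, JNK and atypical MAP kinases, the MAP2K, MAP3K and MAP4K tiers, and the partner proteins that carry these kinases' names. They were taken by name, as every gene symbol on the array that starts with Mapk, Map2k, Map3k or Map4k and a digit, less the p38 genes Mapk11, Mapk12, Mapk13 and Mapk14 and the p38 activators Map2k3 and Map2k6. The rule gave 39 of the 21689 genes measured, on 72 probes: 5 MAP2Ks, 14 MAP3Ks, 5 MAP4Ks, 3 ERK genes, 3 JNK genes, 2 atypical MAP kinases and 7 partners. No measured value entered the choice. Gene positions given below are those of RefSeq on GRCm38.p6.

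MAP kinase cascades relay a signal through kinases that phosphorylate one another in order, from a MAP3K to a MAP2K to a MAP kinase, with MAP4Ks feeding some MAP3Ks from above. Map2k1 and Map2k2 activate ERKs such as Mapk3, Map2k4 and Map2k7 activate the JNKs Mapk8, Mapk9 and Mapk10, and Map2k5 activates ERK5, the product of Mapk7. In fibroblasts, growth factors act mainly through the ERKs, while cytokines, osmotic shock and inhibitors of translation also engage JNK and p38, mostly by phosphorylation of kinases already present, which an mRNA array does not see.

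RNA came from immortalised mouse embryonic fibroblasts (MEFs), either wild type or lacking p38α, the kinase encoded by Mapk14. Wild type cells received 25 ng/ml anisomycin (an inhibitor of translation) for 45 min, 100 ng/ml TNFα for 45 min, or 100 mM NaCl (an osmotic shock) for 45 min, 2 h or 8 h, each without or with SB203580, an inhibitor of p38α and p38β, and 1 further wild type group received SB203580 alone. Sample titles give SB203580 as 10 mM for 2 h, and the protocol gives 10 μM for 30 min before the stress. The p38α-/- cells were untreated or received anisomycin for 45 min, TNFα for 45 min or NaCl for 2 h. These 15 groups had 2 arrays each, from independent experiments, and 11 of them were wild type. How many independent lines stand behind each genotype is not given in the sources used here, and other differences between the lines cannot be told apart from the loss of p38α.

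Each array carried the sample in Cy5 and, in Cy3, one common pool made from untreated wild type MEFs. Values are log2 ratios of sample over pool, so 0 is the level of the pool and 1 is a 2-fold higher level. The pool is the only untreated wild type RNA, its own spread is not in the error, and the dyes were not swapped: a deviation that all groups share cannot be told apart from the pool or the dyes. All comparisons with the pool share it, and in RNA from whole cultures fewer expressing cells and less RNA per cell cannot be told apart. Tests were made with limma on all 30 arrays, and "called" means an adjusted p under 0.05 over all genes measured on both arrays of the groups compared. With 2 arrays a group, the p-values measure the spread between these samples.

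Between 81.1% and 96.8% of spots were well above background in Cy5 and 92.6% to 98.9% in Cy3, and spots that the scanner software marked as outliers, 6.78% to 44.8% of an array, were left out. Mapk14 lay at 0.05 to 1.31 on the 16 of 22 wild type arrays that measured it, and at -2.24 to -0.94 on 6 of 8 knockout arrays, below every wild type value. All 12 fibroblast markers were above background on all 30 arrays, at a median signal percentile of 93.95. So were 4 of 4 leukocyte markers, at percentiles of 35.3 to 90.7, 2 of 3 endothelial, 2 of 3 pluripotency markers and the single epithelial marker on the array, and their part in the results was not tested.

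Few of the 39 genes moved far from the pool. Of 423 pairs of gene and group with both arrays measured, 87 were called, 34 higher and 53 lower. By gene, 26 were called in at least 1 group, of which 8 were called only higher, 15 only lower and 3 in both directions (Map3k14, Mapk1ip1 and Mapk8ip3). Map3k8 was the only one past 2.5-fold against the pool. These counts over groups have no matching count over all genes here, so they are not read as a trait of the set. In wild type cells without SB203580, 2 of 26 measured genes of the set were called after anisomycin, where 12% of all 15720 genes tested were called, and 3 of 24 after TNFα, where 11% of all genes were. After NaCl the set gave 3 of 20 at 45 min against 9.88% of all genes, 5 of 30 at 2 h against 9.92%, and 7 of 29 at 8 h against 22.2%. SB203580 alone gave 10 of 24 against 26.6%, and untreated knockout cells gave 6 of 30 against 15%. With SB203580 the stresses gave 6 of 25 for anisomycin (11.7% of all genes), 3 of 30 for TNFα (9.52%), and 6 of 22, 7 of 30 and 10 of 30 for NaCl at 45 min, 2 h and 8 h (16.8%, 17.1% and 21.2%). In knockout cells they gave 4 of 35 for anisomycin (12.4%), 3 of 33 for TNFα (7.61%) and 12 of 35 for NaCl (18%). The difference between these shares and those of all genes was not tested. The median log2 ratio of the set was -0.08, -0.04, -0.11, -0.06 and 0.05 in the 5 stresses in this order, with medians over all genes between 0 and 0.01.

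With the replicate number as a block, the counts were 6 after anisomycin (21.2% of all genes), 5 after TNFα (18.1%) and 6 after NaCl for 45 min (20.2%). Of the 87 calls, 11 held under every alternative fit run on single calls, including the loss of either array of the group: Map3k8 in the 3 TNFα groups, Map4k2, Mapk3 and Mapk7 at 8 h of NaCl with and without SB203580, Map2k1ip1 at 8 h of NaCl with SB203580, and Map3k11 in knockout cells after NaCl. The 2.5-fold threshold was applied only to counts, and of these 11 only the Map3k8 calls pass it. Every other call was lost without at least 1 array of its group, and in that case the value that remains is the other array's, which is given below for the genes described. With SB203580 alone, none of the 10 calls held without replicate 1, and 12 genes were called without replicate 2.

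**Figure D1:**
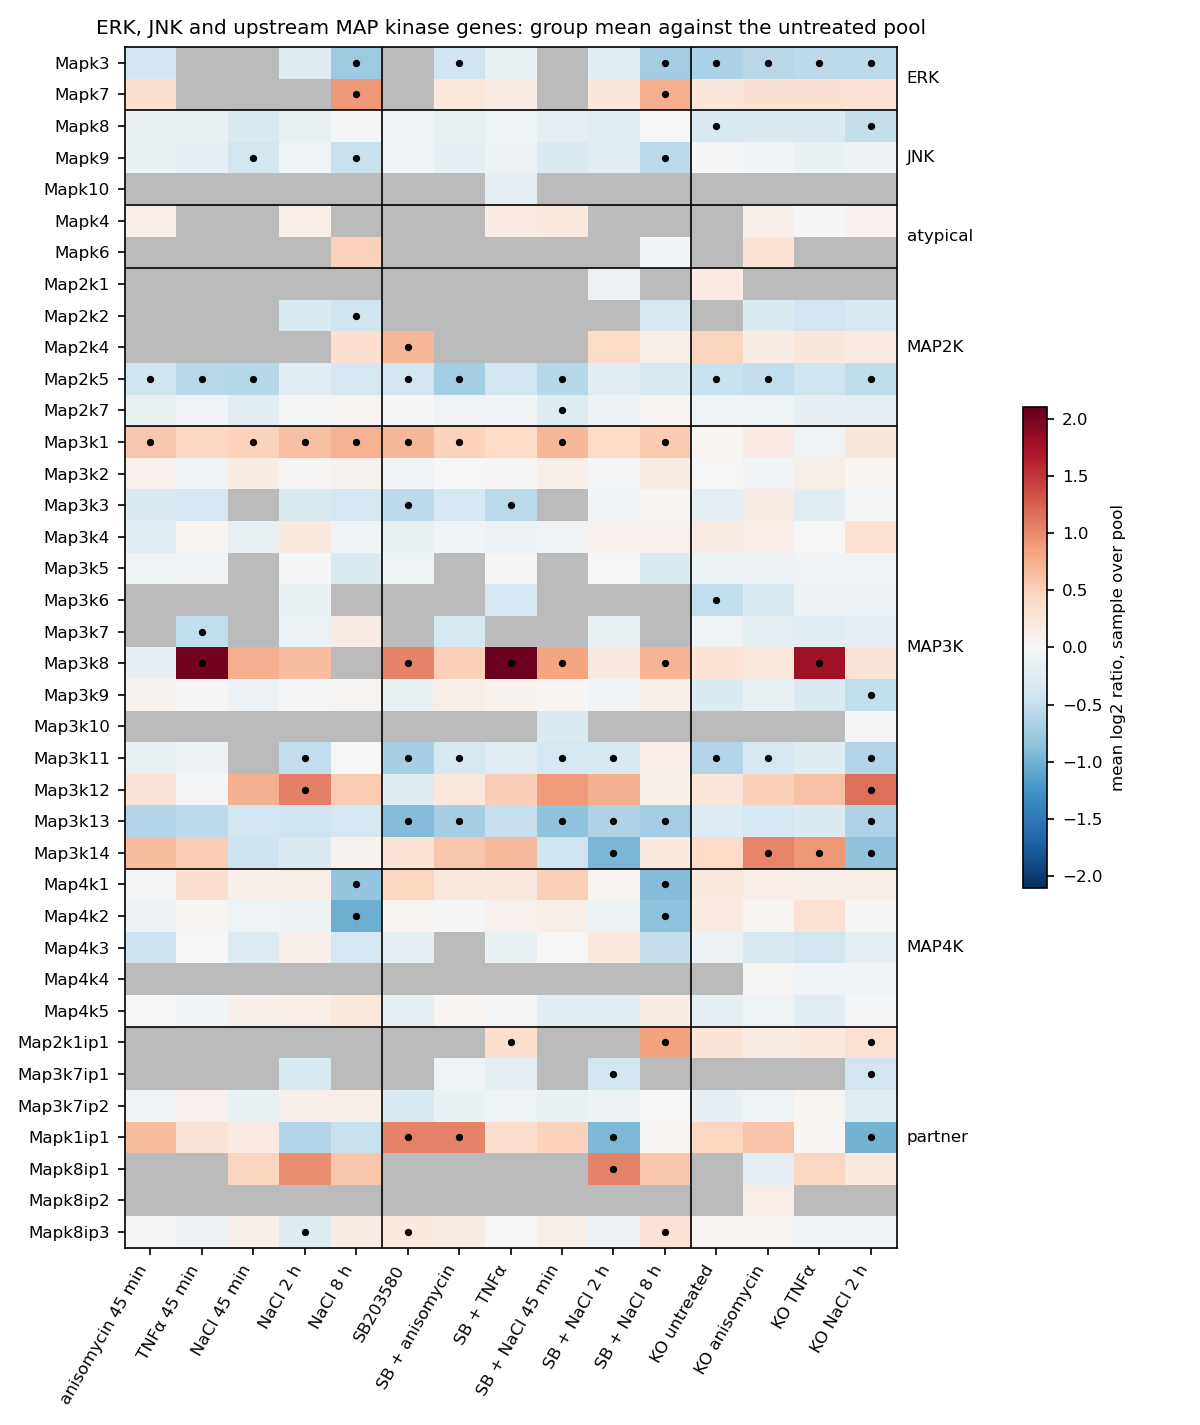
Mean log2 ratio to the pool of the genes described here (rows, by role) in the 15 groups (columns), from blue (below the pool) through white to red (above). Dots mark calls at adjusted p under 0.05 (limma) and grey cells were not measured on both arrays, while 6 Mapk8ip1 cells rest on a saturated pool signal and are upper limits: Map3k8 stands out in the 3 TNFα columns, and Map4k1, Map4k2 and Mapk3 are low and Mapk7 high in both NaCl 8 h columns.

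Among the MAP3Ks, Map3k8 was called above the pool after TNFα in wild type cells, in wild type cells given SB203580 and in p38α-/- cells. Map3k8 (chromosome 18, 4331325 to 4352953) encodes Tpl2, the kinase that links TNF receptor signalling to Map2k1 and Map2k2 and so to ERK. Its log2 ratios after TNFα were 1.99 and 2.07 in wild type cells, 2.22 and 1.88 with SB203580, and 1.74 and 1.81 in knockout cells. These 6 arrays lay above all of the 23 other arrays that measured it, which ran from -0.43 to 1.42. The means were 2.03 ± 0.06 (SD, n = 2; 4.08-fold; limma adjusted p = 6.35e-05), 2.05 ± 0.24 (4.14-fold; adjusted p = 9.23e-05) and 1.77 ± 0.04 (3.42-fold; adjusted p = 0.000187). Past 2.5-fold at TNFα lay 0.787% of all genes in wild type cells, 0.564% with SB203580 and 0.668% in knockout cells.

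Neither SB203580 nor the loss of p38α gave a called difference in Map3k8 after TNFα. The value with SB203580 minus that without was 0.02 (95% interval -0.69 to 0.73), and knockout minus wild type was -0.25 (-0.96 to 0.46), so a reduction of Map3k8 of more than about 1 log2 unit lies outside the second interval. Taken from its own unstressed level, which was 1.04 with SB203580 alone, the response to TNFα was smaller with SB203580 than without, by a difference of -1.02 (95% interval -1.89 to -0.15), at an unadjusted p of 0.0244 and an adjusted p of 0.24 (limma). The pool is the unstressed level without SB203580, so a deviation due to the pool or the dyes stays in this difference. Against untreated knockout cells, which lay at 0.29 and 0.27, the value after TNFα was 1.50 higher (0.79 to 2.21), at an unadjusted p of 0.00035 but an adjusted p of 0.3 (limma), in a comparison where 0.078% of all genes were called. Map3k8 was also above the pool with SB203580 alone, at 1.42 and 0.66 (adjusted p = 0.00484, limma; 0.3 without replicate 1), and in wild type cells after NaCl for 45 min, at 0.65 and 0.89 (mean 0.77, adjusted p = 0.0504, and 0.027 with the replicate block). At 2 h of NaCl it lay at 0.83 and 0.47, and after anisomycin at -0.43 and 0.10, so the rise on the TNFα arrays was not shared by the other stresses at that size.

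Map3k14 lay above the pool under some stresses and below it under others. It encodes NIK, the kinase of the non-canonical NF-κB pathway, and lies on chromosome 11 at 103219764 to 103267401. Knockout cells had 0.98 and 1.07 after anisomycin (adjusted p = 0.00449, limma), 0.83 and 0.99 after TNFα (adjusted p = 0.0139) and -0.57 and -1.10 after NaCl for 2 h (adjusted p = 0.0116), around 0.74 and 0.11 in untreated cells. In wild type cells the same direction appeared on every array, with 0.99 and 0.29 after anisomycin, 0.77 and 0.28 after TNFα and -0.46 and -0.12 after NaCl for 2 h, none of these means called. With SB203580 the values were 0.69 and 0.48, 1.05 and 0.33, and -0.90 and -1.02, and the last pair was called (mean -0.96 ± 0.09, adjusted p = 0.00564). SB203580 alone gave 0.62 and -0.04. All arrays at 45 min and 2 h of NaCl lay below the pool and all arrays with anisomycin or TNFα above it. With normexp background correction the knockout value after NaCl was -0.39 (adjusted p = 0.0541).

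Within the knockout line, the difference in Map3k14 between NaCl for 2 h and no treatment was -1.26 (95% interval -1.90 to -0.62; limma adjusted p = 0.0513, and 0.0128 with the replicate block). Against the same untreated cells anisomycin gave 0.60 (-0.03 to 1.24) and TNFα 0.49 (-0.15 to 1.13). Neither was called, so a rise with these stresses was not shown within that line. The wild type difference between SB203580 plus NaCl and NaCl for 2 h was -0.67 (-1.31 to -0.03), at an unadjusted p of 0.0404 and an adjusted p of 1. Knockout minus wild type was 0.38, 0.39 and -0.54 for anisomycin, TNFα and NaCl, with each interval covering 0.

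The partner gene Mapk1ip1 (chromosome 7, 138835818 to 138846267) shared the low values with NaCl at 2 h. It lay at -0.57 and -0.67 in wild type cells, at -1.17 and -0.72 with SB203580 (mean -0.95 ± 0.32, limma adjusted p = 0.011) and at -0.87 and -1.12 in knockout cells. The knockout mean was 2.00-fold below the pool (limma adjusted p = 0.00704). Its Cy5 signal was not well above background on either knockout array, so the size of that fall is uncertain. The gene was above the pool with SB203580 alone, at 1.23 and 0.85 (mean 1.04, adjusted p = 0.00424), with SB203580 and anisomycin, at 0.84 and 1.24 (adjusted p = 0.00903), and on both arrays with anisomycin without SB203580, at 0.63 and 0.69. In knockout cells the fall from untreated to NaCl was estimated at 2.72-fold (difference -1.44, 95% interval -2.14 to -0.74, limma adjusted p = 0.0439). This was the only call for the set in the 3 stresses of that line. There 1.08% of all genes were called, after 0.0847% for anisomycin, and the call was lost without any 1 of the 4 arrays compared, the adjusted p then running from 0.0641 to 0.435. With normexp the difference was -0.54 (adjusted p = 0.18), and the knockout value after NaCl was -0.33 (0.0672).

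**Figure D2:**
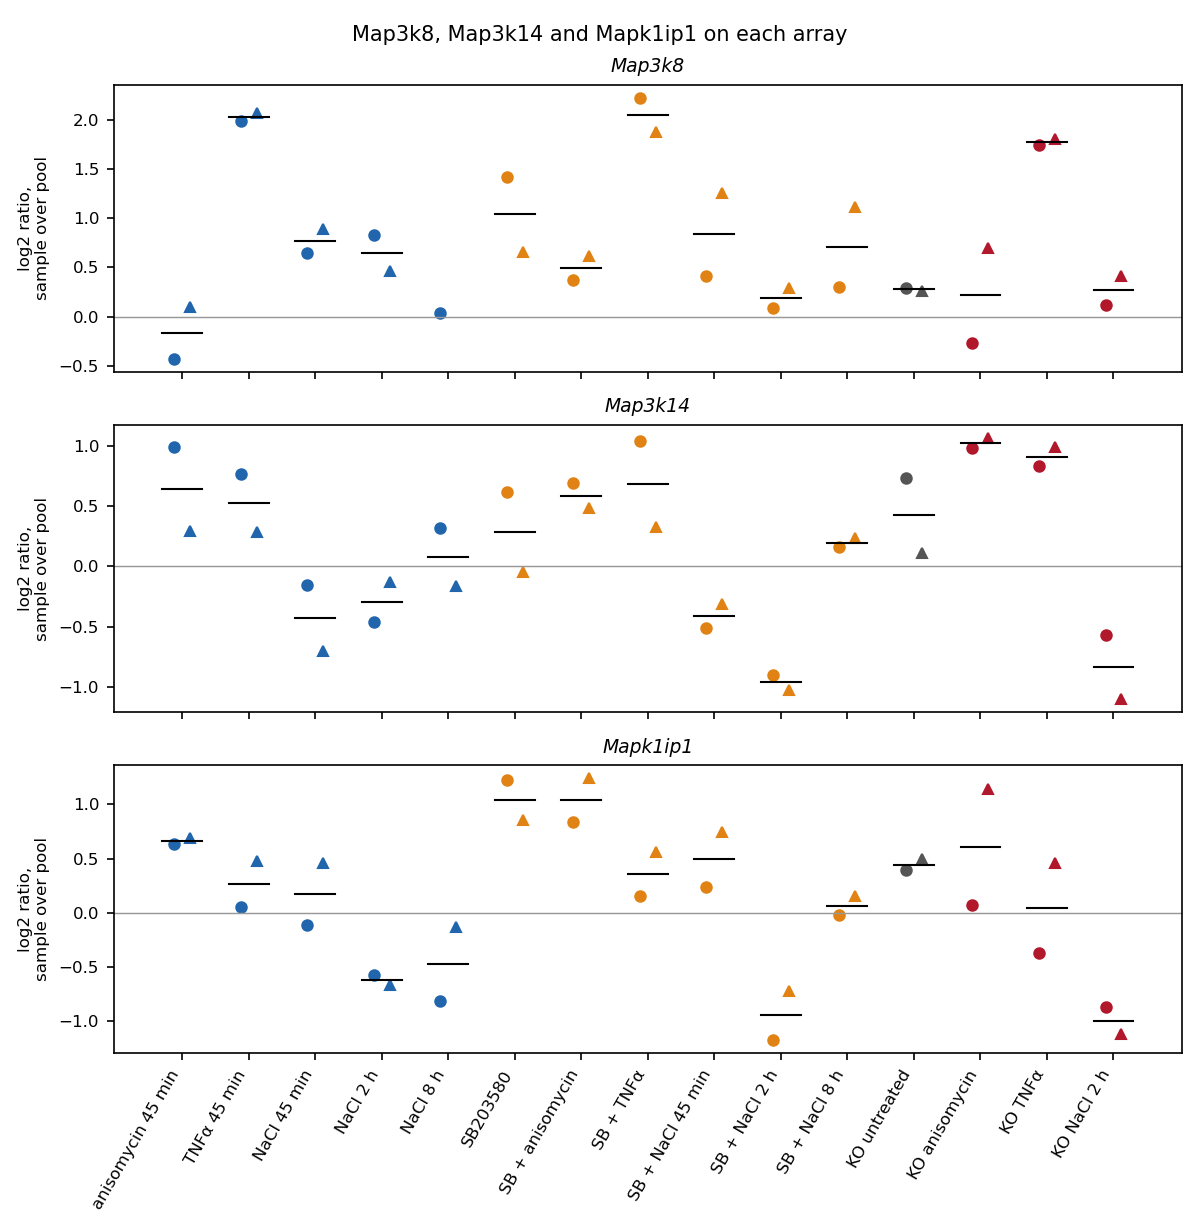
Log2 ratio to the pool of Map3k8, Map3k14 and Mapk1ip1 on each array (circles replicate 1, triangles replicate 2), with bars at the mean of groups with both arrays measured. Colours separate wild type, wild type with SB203580, untreated knockout and stressed knockout groups: Map3k8 reaches 1.74 to 2.22 on the 6 TNFα arrays. The lowest Map3k14 array is from knockout cells and the lowest Mapk1ip1 array from cells with SB203580, both with NaCl at 2 h. In wild type cells without SB203580 the lowest Map3k14 array is at 45 min of NaCl (-0.70) and the lowest Mapk1ip1 array at 8 h (-0.81).

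Map3k1, which encodes MEKK1, a strong activator of the JNK pathway, lay above the pool on 22 of 22 wild type arrays, between 0.33 and 0.99. On the 8 knockout arrays it lay between -0.38 and 0.42, above the pool on 5 and below on 3. It was called in 8 wild type groups, with the largest mean, 0.73 ± 0.37, after 8 h of NaCl (adjusted p = 0.00166, limma; 0.156 without replicate 2), and in no knockout group.

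Map3k12 encodes DLK, a mixed-lineage kinase best known for JNK signalling in neurons. After 2 h of NaCl it lay at 1.13 and 0.99 in wild type cells (1.06 ± 0.10, adjusted p = 0.0421), at 0.54 and 0.96 with SB203580 and at 0.92 and 1.39 in knockout cells (1.16 ± 0.34, adjusted p = 0.0175). It was also above the pool on the 4 arrays at 45 min, from 0.64 to 0.92, while at 8 h the wild type arrays split at -0.12 and 1.18. All of these values came from 1 of its 2 probes, since the other had values on only 4 arrays, of other groups, and the wild type mean at 2 h fell to 0.28 with normexp background correction (adjusted p = 0.155), to 0.37 in the authors' series matrix (0.153) and to 0.43 with outlier spots kept (0.1), so its size changed with the background handling.

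Map3k11, the MLK3 gene, lay below the pool on 25 of 29 arrays, while its 4 arrays at 8 h of NaCl ran from -0.03 to 0.21. The lowest pairs were -0.86 and -0.54 with SB203580 alone (adjusted p = 0.000256, limma), -0.34 and -0.70 after NaCl for 2 h (adjusted p = 0.00388), -0.83 and -0.41 in untreated knockout cells (adjusted p = 0.0008) and -0.59 and -0.65 in knockout cells after NaCl (adjusted p = 0.000575). From 2 h to 8 h of NaCl it rose by 0.53 (95% interval 0.22 to 0.83, adjusted p = 0.0307). Its relative Map3k13, which encodes the DLK-like kinase LZK, was below the pool on 29 of 30 arrays, from -1.44 to 0.01, and was called in 6 groups, of which 5 held SB203580. Without SB203580, its wild type means were -0.609 after anisomycin and -0.555 after TNFα (adjusted p = 0.0582 and 0.0884, limma). Both were called with the replicate block (0.00883 and 0.0163), and no difference of Map3k13 between a stress with and without SB203580 was called. The widest pair was that of SB203580 alone, -1.44 and -0.38, where replicate 1 carried the call (adjusted p = 0.00393, and 0.426 without it).

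The other MAP3Ks moved less. Map3k7, the TAK1 gene, was lower after TNFα in wild type cells, at -0.33 and -0.71 (adjusted p = 0.0182, limma; 0.359 without replicate 2). Map3k3, which encodes MEKK3, was lower with SB203580 alone, at -0.63 and -0.45 (adjusted p = 0.0161), and with SB203580 and TNFα, at -0.56 and -0.58 (adjusted p = 0.028). These low values came from 1 of its 2 probes, which read -1.53 and -0.45 with SB203580 alone. The other Map3k3 probe lay above the pool on every array that measured it, from 0.08 to 0.64. It entered replicate 1 of SB203580 alone, at 0.27, but not replicate 2 or the arrays with SB203580 and TNFα. Map3k6, the ASK2 gene, was lower in untreated knockout cells, at -0.43 and -0.62 (adjusted p = 0.0163). Map3k9, the MLK1 gene, was lower in knockout cells after NaCl, at -0.49 and -0.55 (adjusted p = 0.00579). Map3k2, Map3k4, Map3k5 and Map3k10, which encode MEKK2, MEKK4, ASK1 and MLK2, were called in no group. Over the whole tier 175 pairs of gene and group were tested, with 18 called higher and 21 lower. By group, 7.61% to 26.6% of all genes were called, and no tier was tested against these shares.

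All calls of the MAP4K tier were falls at 8 h of NaCl. Map4k2 encodes a kinase above the JNK pathway and lies on chromosome 19 at 6340990 to 6355619. It fell to -1.24 and -0.82 (mean -1.03 ± 0.29, 2.04-fold; limma adjusted p = 2.8e-05), and to -0.90 and -0.83 with SB203580 (-0.86 ± 0.05; adjusted p = 0.000218). The 26 other arrays ran from -0.28 to 0.61, with no overlap, and both Map4k2 probes took part, at -0.82 and -1.23 without SB203580. The probes differed in level: outside 8 h the first had group means of -0.42 to -0.23 and the second of 0.05 to 0.57. They were of opposite sign in 8 of the 10 groups where both were measured, so the size of the fall depends on the probe.

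Map4k1, the HPK1 gene (chromosome 7, 28982050 to 29003279), gave -1.11 and -0.50 at 8 h (adjusted p = 0.0155, limma) and -1.17 and -0.64 with SB203580 (adjusted p = 0.00841), below the -0.45 to 0.68 of the 26 other arrays. Without replicate 1 neither pair was called (adjusted p = 0.37 and 0.254), and with normexp the first was -0.25 (0.063). Map4k3, Map4k4 and Map4k5, which encode GLK, HGK and KHS, were called in no group, so the 4 calls of the 62 MAP4K pairs were these. HPK1 is best known from blood cells. The 4 leukocyte markers gave signal on all 30 arrays, and their part in this fall was not tested.

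Between 2 h and 8 h of NaCl, 3 of 26 genes of the set were called in wild type cells, where 7.81% of all genes were. Map4k2 fell by 0.93 (95% interval -1.33 to -0.53; limma adjusted p = 0.00516), while Map3k11 and the scaffold gene Mapk8ip3 rose, the latter by 0.41 (adjusted p = 0.0229). The replicate block added Map4k1, at -0.93 (adjusted p = 0.0136, against 0.0927), and Mapk3, at -0.52 (0.0159, against 0.0902). From 45 min to 8 h, only Map4k2 of 19 genes was called (-0.94, adjusted p = 0.00466), where 7.53% of all genes were, and the block again added Map4k1 (-0.91, 0.0145, against 0.101). Without replicate 1 at 8 h, Map4k2 missed the threshold in both (adjusted p = 0.0793 and 0.0739), as it did from 45 min without replicate 2 of the earlier time (0.0779). Map3k11 missed it without replicate 2 at 2 h (0.281) or either array at 8 h (0.163 and 0.0866), Mapk8ip3 without any 1 of the 4 arrays (0.0556 to 0.149), and all of these calls were lost with only the compared arrays in the fit (0.194 to 0.368).

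Among the ERK genes, Mapk3 fell and Mapk7 rose at 8 h of NaCl, with and without SB203580. Mapk3, which encodes ERK1 (chromosome 7, 126759626 to 126765816), lay at -0.84 and -0.70 (mean -0.77 ± 0.10, 1.71-fold; limma adjusted p = 0.000413) and with SB203580 at -0.83 and -0.61 (adjusted p = 0.000869). The 14 other wild type arrays that measured it ran from -0.45 to -0.11, so the 4 arrays at 8 h were the lowest of the wild type line. The 8 knockout arrays ran from -0.95 to -0.37, and Mapk3 was called in all 4 knockout groups, with means of -0.66, -0.59, -0.55 and -0.55 (adjusted p = 0.003 to 0.0138). All 4 of these calls were lost with only knockout arrays in the fit (adjusted p = 0.0701 to 0.16).

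Mapk7, the ERK5 gene (chromosome 11, 61488812 to 61494267), lay at 0.93 and 0.91 at 8 h (mean 0.92 ± 0.01, 1.89-fold; limma adjusted p = 0.000118) and at 0.70 and 0.84 with SB203580 (0.77 ± 0.10; adjusted p = 0.000614). The other 21 arrays that measured it ran from 0.05 to 0.53, all above the pool and all below these 4. Both probes gave the rise, at 0.96 and 0.88 without SB203580, as both probes of Mapk3 gave the fall, at -0.82 and -0.72. The second Mapk7 probe, A_51_P359018, did not set the arrays at 8 h apart by itself. It read 0.75 to 0.89 there, but 0.99 on replicate 1 of SB203580 alone and 0.75 on knockout anisomycin replicate 2. The first probe read 0.65 to 0.99 on the arrays at 8 h that measured it, and at most 0.36 elsewhere. Mapk7 could not be tested between 2 h and 8 h, since replicate 2 had no value at 2 h.

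The stretch before the start of Mapk7 is shown because it carries 1 of the NF-κB motif matches found in the set. The search covered the 250 bases before the most upstream start among each gene's RefSeq promoter entries, which for Map3k7, Map4k2 and Mapk10 lies inside the gene's own RefSeq span. Capitals mark the match, on the coding strand of this minus-strand gene, at bases 33 to 24 before the start:
Mapk7, chr11:61494282-61494307, GRCm38.p6: aaaggggtGGGAACCTCCacggaggc
Both strands were searched in the 29 genes of the set that have a promoter entry. The NF-κB motif (κB, by name) matched in 3 of them (Map3k7, Map4k2 and Mapk7; 10.3%), against 7.03% of all 27025 promoters. The AP-1 motif TGANTCA matched in 1 (Map3k10), against 6.85% of all, and the CRE motif TGACGTCA in 1 (Mapk10), against 1.6%. The TonE, CArG and EGR1 (GCGTGGGCG) motifs matched in 0, against 4.34%, 1.41% and 0.54% of all. A match only says that these letters are present.

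**Figure D3:**
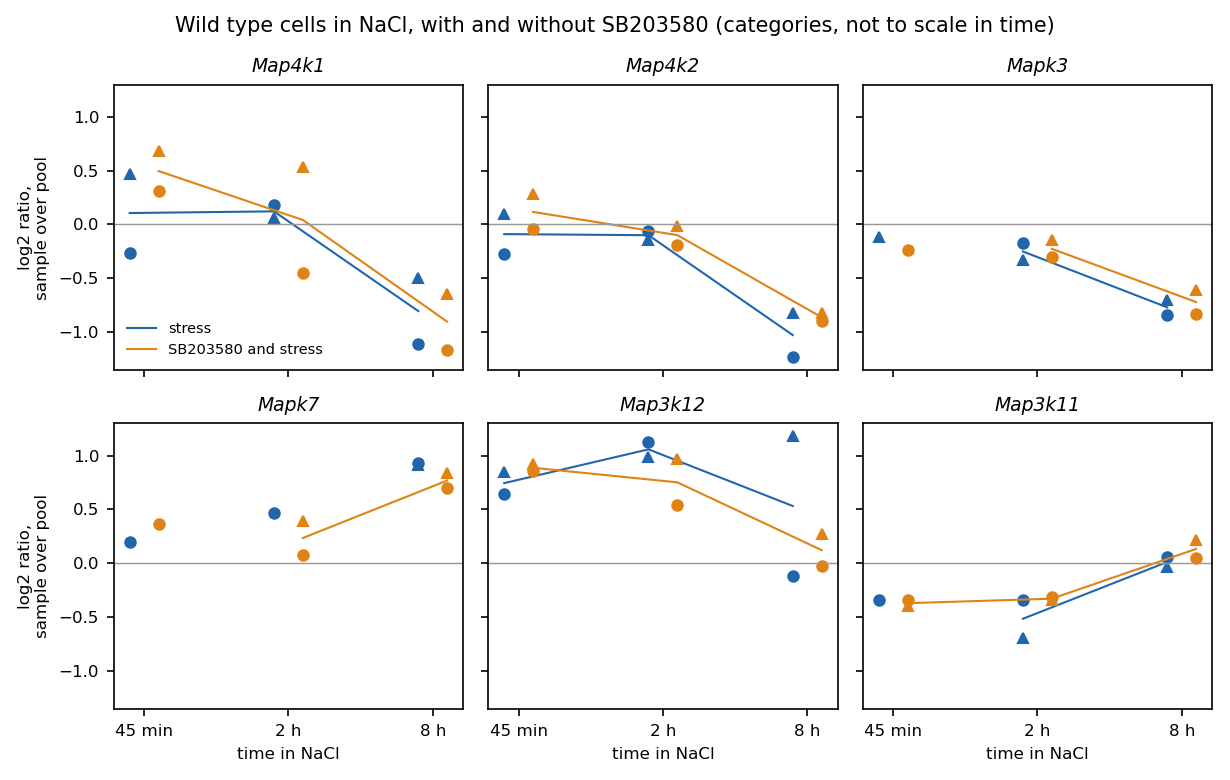
Log2 ratio to the pool of Map4k1, Map4k2, Mapk3, Mapk7, Map3k12 and Map3k11 in wild type cells after 45 min, 2 h and 8 h of NaCl (x axis, h), without and with SB203580. Points are arrays and lines join the means of times with both arrays measured: the Map4k1, Map4k2 and Mapk3 values are lowest and the Mapk7 values highest at 8 h, and Map3k12 has both arrays high at 2 h.

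Of the JNK genes, Mapk9 was called lower after NaCl and Mapk8 in knockout cells, but their probes disagreed. Mapk9, the JNK2 gene (chromosome 11, 49846728 to 49886421), lay at -0.49 and -0.46 at 8 h (adjusted p = 0.00574, limma), at -0.39 and -0.70 with SB203580 (0.00238) and at -0.31 and -0.47 at 45 min (0.0367). At 8 h the fall came from 1 of its 3 probes, A_52_P311566, at -1.44 and, with SB203580, -1.27. The other probes lay at 0.03 and -0.02 at 8 h, and the latter at 0.04 with SB203580. These probes need not share an exon, and which transcripts each one reads was not examined.

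Mapk8, the JNK1 gene (chromosome 14, 33377898 to 33447353), was below the pool on 8 of 8 knockout arrays, from -0.74 to -0.16, and on 20 of 22 wild type arrays. It was called in untreated knockout cells, at -0.28 and -0.35 (adjusted p = 0.0353, limma), and after NaCl for 2 h in that line, at -0.25 and -0.74 (0.00198). By its brightest probe the first was 0.07 (adjusted p = 0.738) and the second -0.18 (0.294). Mapk10, the JNK3 gene, which is mainly neuronal, was measured on 8 of 30 arrays and on both arrays of 1 group, SB203580 and TNFα, at -0.18 and -0.22. The JNK genes together gave 5 calls of 31 pairs, all lower. The atypical MAP kinase genes Mapk4 and Mapk6, of ERK4 and ERK3, gave 0 calls in 10 pairs, the lowest mean -0.06 and the highest 0.48.

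Probes of 1 gene differed in other members too. Of 15 genes with more than 1 probe measured in a group, 5 had probes over 1 log2 unit apart in some group, among them Map3k9, Map4k3, Map4k5 and Mapk9, and 13 had probes of opposite sign in some group, all but Mapk3 and Mapk7.

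**Figure D4:**
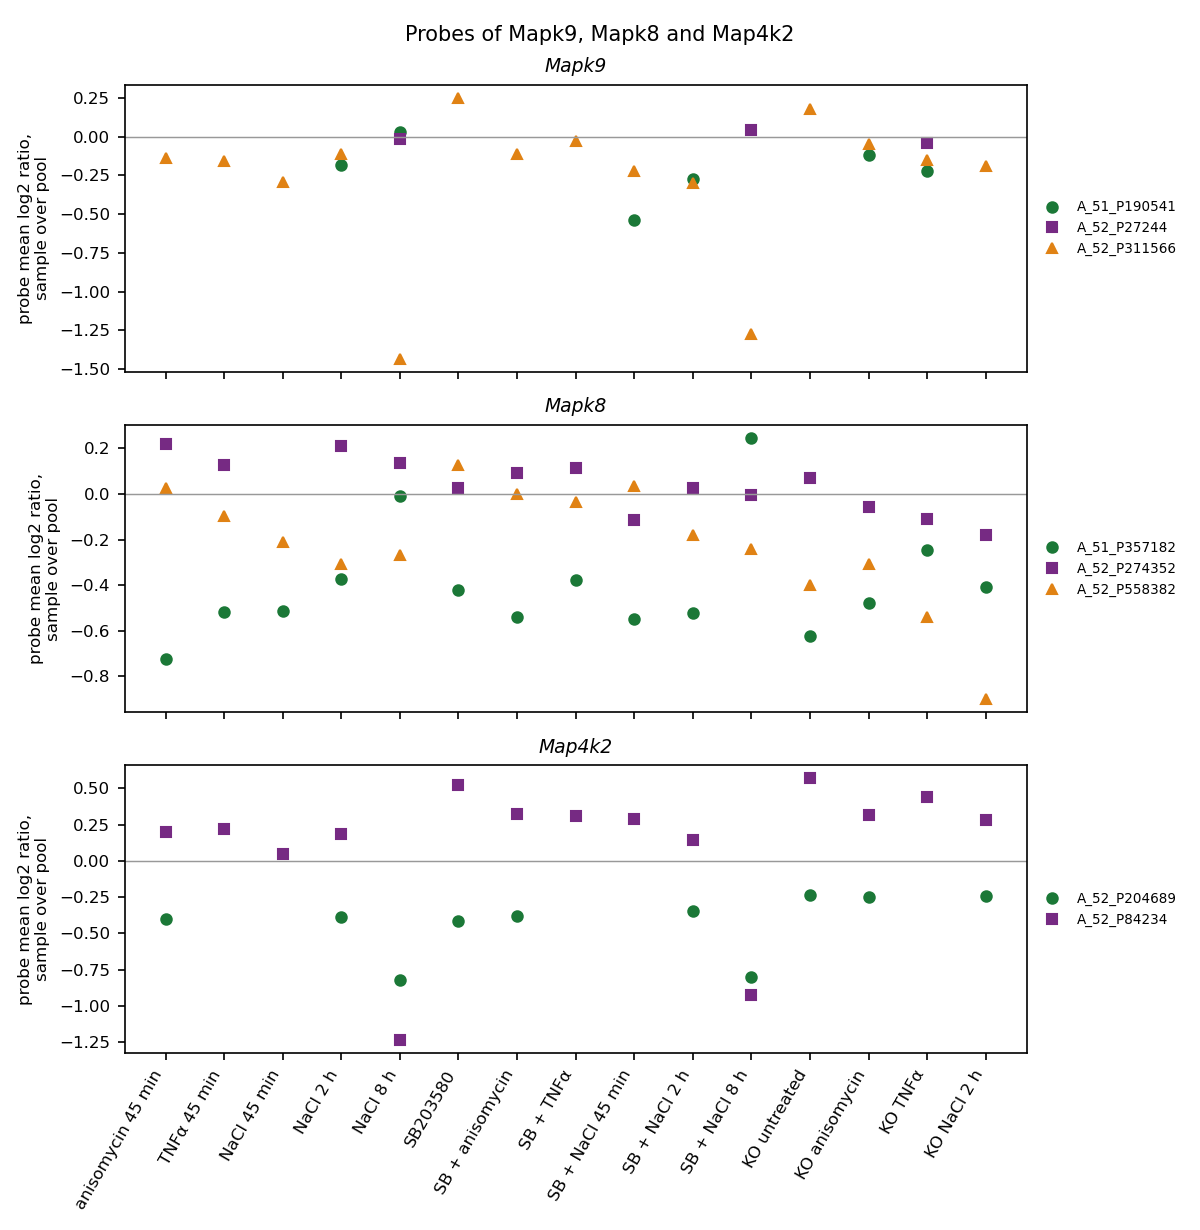
Mean log2 ratio to the pool of each probe of Mapk9, Mapk8 and Map4k2 in the 15 groups, 1 marker and colour per probe, for groups where both arrays gave the probe a value. Of the Mapk9 probes only A_52_P311566 falls to -1.44 and -1.27 in the NaCl 8 h groups, the Mapk8 probes lie on both sides of 0, and both Map4k2 probes fall at 8 h.

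The MAP2K tier gave 12 calls of 46 pairs, 1 higher and 11 lower, and 9 of the lower ones were Map2k5, the kinase above ERK5. Map2k5 lay below the pool on 30 of 30 arrays, from -0.88 to -0.03, with the largest mean, -0.72 ± 0.22, after SB203580 and anisomycin (adjusted p = 0.00176, limma). As it was low in treated and untreated groups and in both lines, a difference of the pool or the dyes cannot be told apart from a lower level in these cells. Map2k4, which activates JNK, was called higher with SB203580 alone, at 1.09 and 0.31 (adjusted p = 0.0188, and 0.519 without replicate 1). Map2k2, the MEK2 gene, was lower at 8 h of NaCl, at -0.61 and -0.22 (adjusted p = 0.0386, and 0.465 without replicate 1). Map2k7, the JNK kinase of the tier with 4 probes, was lower with SB203580 and NaCl for 45 min, at -0.24 and -0.26 (adjusted p = 0.0366), and Map2k1, the MEK1 gene, was measured on both arrays of only 2 groups and not called.

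Of the partner genes, Map2k1ip1 encodes the scaffold Lamtor3, which holds MEK1 and ERK1 at late endosomes. It was above the pool on 21 of 21 arrays that measured it, and with SB203580 and NaCl for 8 h it reached 0.76 and 0.92 (0.84 ± 0.11; limma adjusted p = 0.000289). At 8 h without SB203580 only replicate 1 gave a value, 0.54. Map3k7ip1, the TAB1 gene, whose protein binds TAK1, was lower after 2 h of NaCl with SB203580, at -0.43 and -0.36 (adjusted p = 0.019), and in knockout cells, at -0.34 and -0.43 (0.0189). Map3k7ip2, which encodes TAB2, was called in no group.

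The JIP scaffolds hold JNK with its upstream kinases. For Mapk8ip1, the JIP1 gene, the pool was saturated in Cy3 on both arrays of 6 groups, so its ratios there are upper limits and give no direction. Among them is the pair with SB203580 and NaCl for 2 h, at most 1.07 and 1.01, which the fit counted as 1 of the 34 higher calls (adjusted p = 0.0314, limma). Mapk8ip3, the JIP3 gene, stayed within 0.34 of the pool on every array, and was called at -0.29 and -0.21 after NaCl for 2 h (adjusted p = 0.0388), at 0.22 and 0.20 with SB203580 alone (0.0447) and at 0.34 and 0.26 with SB203580 and NaCl for 8 h (0.00771). Mapk8ip2, the JIP2 gene, was measured on both arrays of 1 group and not called.

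To ask what p38 inhibition changed, each stress with SB203580 was set against the same stress without it. None of the 23, 23, 19, 27 and 28 genes of the set tested was called for anisomycin, TNFα and NaCl at 45 min, 2 h and 8 h (limma). Among all genes, 3 (0.0204%), 0, 0, 0 and 31 (0.206%) were called, and 310, 204, 312, 533 and 758 had an unadjusted p under 0.05. Of the set only Map3k14 at 2 h, described above, was under that unadjusted level. The estimates ran from -0.67 to 0.66, and an unadjusted 95% interval reached a median of 0.42 to 0.47 to either side. A call needed an adjusted p under 0.05 over all genes, so larger changes could also go uncalled with 2 arrays.

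The response to a stress was also compared between cells with and without SB203580, each taken from its own unstressed level (SB203580 alone, or the pool). Of the set only Map3k11 with NaCl for 2 h was called, at a difference of 0.89 ± 0.18 (SE; 95% interval 0.52 to 1.26; limma adjusted p = 0.0212), where 1.65% of all genes were called. The share of all genes called was 0.583% for anisomycin, 0.651% for TNFα, 0.0936% for NaCl at 45 min and 0.295% at 8 h. Map3k11 moved from -0.70 with SB203580 alone to -0.33 with SB203580 and NaCl, against -0.52 for NaCl relative to the pool. The call was lost with arrays scaled to one spread (0.78, adjusted p = 0.0771) and with fewer arrays in the fit (0.333). With the replicate block there were 4 calls at 2 h (Map3k1, Map3k8, Map3k11 and Mapk1ip1), 2 at 8 h, 2 for TNFα and 1 for anisomycin, where 5.91%, 3.07%, 3.28% and 3.66% of all genes were called in that fit. The SB203580 group without stress enters all of these. A deviation due to the pool or the dyes cancels between 2 groups with SB203580 but not in the ratio without it. It therefore cannot be told apart from these differences.

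For the loss of p38α, knockout and wild type cells under the same stress were compared. None of 26 genes of the set was called after anisomycin, 24 after TNFα or 30 after NaCl for 2 h (limma), where 1.27%, 0.414% and 0.697% of all genes were called. At an unadjusted p under 0.05 lay 0, 1 and 2 of the set and 1932, 1115 and 2042 of all genes. These 3 were Map3k1 after TNFα (-0.52), and Map3k9 (-0.50) and Mapk8 (-0.34) after NaCl. The intervals reached a median of 0.41 to 0.43 to either side.

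The genotypes were mostly scanned apart: by the scan times in the file headers, wild type replicate 2 and knockout replicate 1 share 1 batch, and the other arrays of each line lie in batches of their own. With the scan batch as a block, chosen after seeing the data, Map3k1 after TNFα had a knockout minus wild type difference of -0.87 ± 0.19 (SE). Knockout TNFα replicate 2 lies alone in its batch, so this fit takes the knockout value from replicate 1 only. Replicate 1 lay at -0.38 and replicate 2 at 0.23, so no call is read from this difference. After anisomycin and NaCl 0 genes of the set were called in that fit, where 2.01% and 1.25% of all genes were called. The Map3k1 differences there were -0.63 after anisomycin (limma adjusted p = 0.0619) and -0.64 after NaCl (0.0795). Within the shared batch the single arrays gave -0.81, -0.69 and -0.50 for TNFα, anisomycin and NaCl. In the block fit Map3k9 had -0.63 after TNFα, again from 1 knockout array, and -0.61 after NaCl (limma adjusted p = 0.0832). Over the set, 17 of 26, 19 of 24 and 20 of 30 differences had the same sign within that batch as over all arrays.

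**Figure D5:**
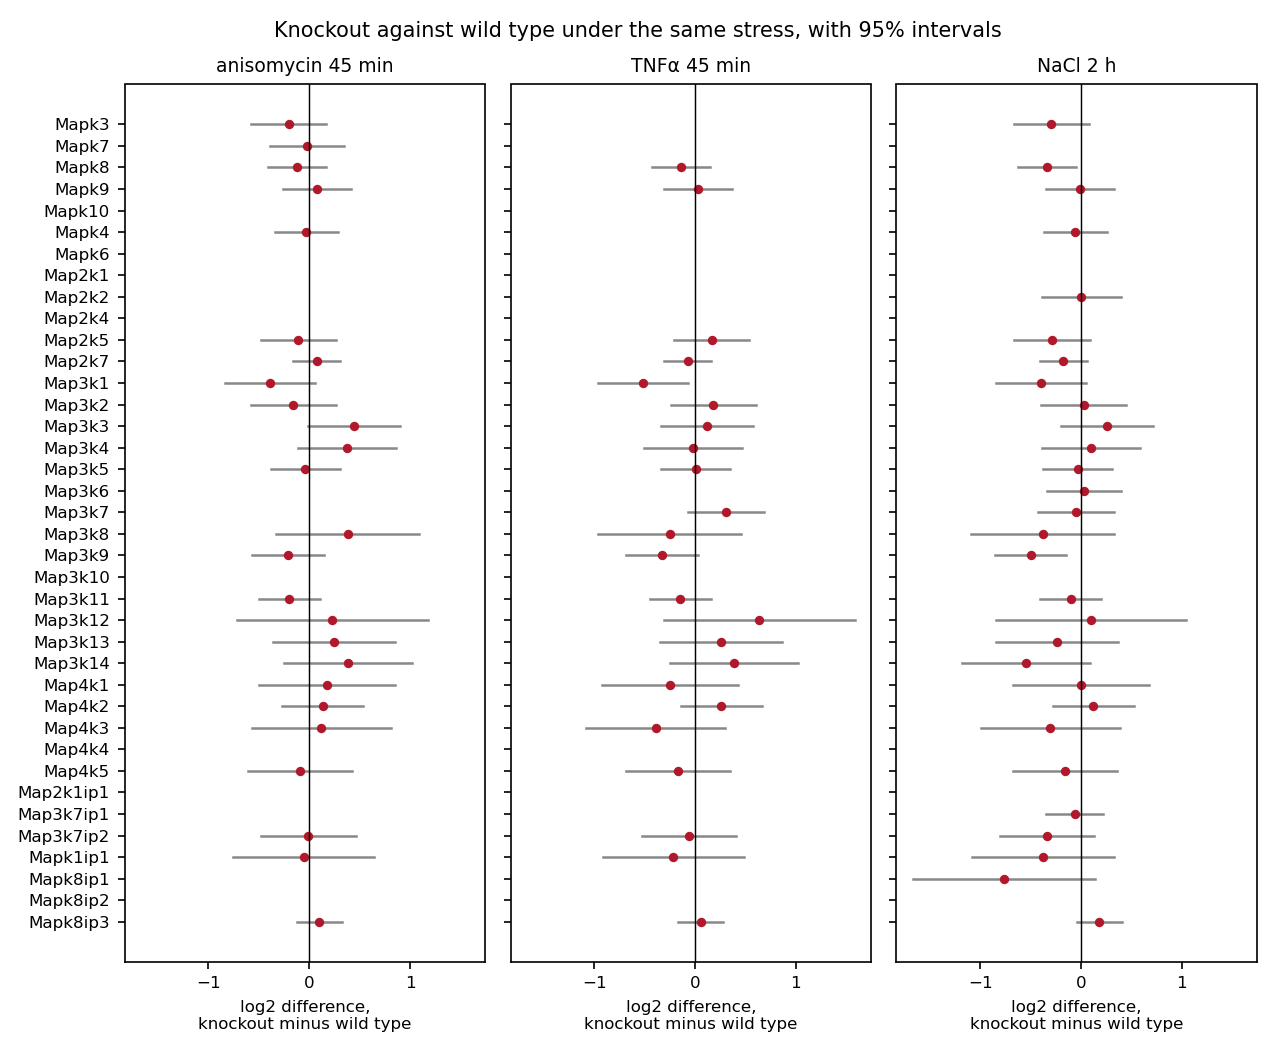
Knockout minus wild type differences in log2 ratio for the genes of the set after anisomycin, TNFα and NaCl for 2 h, as estimates with 95% intervals from the fit on all 30 arrays without a block. None passed an adjusted p under 0.05: Map3k1 after TNFα, and Map3k9 and Mapk8 after NaCl, have intervals that leave out 0.

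The change from untreated to stressed knockout cells was also set against the wild type change from the pool. No gene of the set differed among 25, 24 and 26 tested for anisomycin, TNFα and NaCl (limma), where 0.542%, 0.45% and 0% of all genes were called. At an unadjusted p under 0.05 lay 3 genes of the set in each, beside 15.2%, 14.5% and 13.6% of all genes. For Map3k8 with TNFα the difference was -0.53 (95% interval -1.40 to 0.34). A deviation due to the pool or the dyes stays in the wild type change and cannot be told apart from these differences.

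Other genes of these pathways were taken from 3 lists: 12 genes that carry signals into RAS and RAF (8 on the array), 15 that carry signals to the stress kinases (13), and 12 kinases and factors below ERK or JNK (10). At 8 h of NaCl, 3 of 7 measured RAS and RAF genes were called higher (Sos1, Sos2 and Grb2) and 0 lower, where 11% of all genes were called higher and 11.2% lower. Of 11 measured stress input genes 0 were higher and 1 lower (Mink1 at -0.54). Of 9 genes below the MAP kinases 2 were higher (Rps6ka3 at 0.66 and Rps6ka5 at 0.57) and 1 lower (Mef2c, a target of ERK5, at -0.91 and -0.69; limma adjusted p = 9.55e-05). Mef2c was also lower in untreated knockout cells, at -0.94 and -0.82 (adjusted p = 0.000148). Sos1, Sos2 and Grb2 were also called higher at 2 h of NaCl (0.58, 0.74 and 0.44), and Hras1 lower (-0.43). There 9.92% of all genes were called in either direction. Grb2 was called higher with SB203580 alone (0.50) and in untreated knockout cells (0.54) as well. Sos2, an exchange factor for RAS, was called higher in all 11 wild type groups, from 0.54 to 1.09, and the stress input kinase Pak1 was called lower in 9 of them, with a lowest mean of -1.31, so both share the limit of the pool and dyes. Gadd45b, which binds MEKK4, had means of 0.96 after anisomycin, 1.72 after TNFα and 1.58 after 2 h of NaCl. No gene of the lists was called in the comparisons of SB203580 or of knockout with wild type under the same stress.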

How the data were processed

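Total RNA was amplified in 2 rounds, labelled and hybridised to Agilent whole mouse genome 44K 2-colour arrays. The authors extracted the images with Agilent Feature Extraction (9.1 per the labels, 8.1.1.1 per the file headers), and the deposited values used here are its dye-normalised log10 ratios of Cy5 over Cy3, which were multiplied to the log2 scale. Deposited signal intensity columns served for background and saturation limits and for the normexp alternative. The authors' series matrix of log2 values was an alternative. Outlier and control spots were left out. Spots were averaged per probe and 33453 named probes per gene, over 21689 genes. limma 3.58.1 in R 4.3.3 fitted 15 group means on 30 arrays (15 residual degrees of freedom with no missing value), with Benjamini-Hochberg adjustment per comparison, and the steps were tested on simulated data. The number of arrays limits the precision.

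Replicate numbers pair the arrays within a genotype: the deviations of same-numbered arrays correlated at 0.133 to 0.645 in all 55 wild type and 0.151 to 0.447 in all 6 knockout pairs of groups, and at a median of -0.00512 across genotypes. The numbers follow the scan batches in the file headers within each line, other than knockout TNFα replicate 2, which lies in a batch of its own.

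Values on each array are given for the 14 genes with the largest means among those called in any group and for ERK and JNK genes, and other genes by range, count or the arrays of their calls. The counts cover all 39 genes, of which 1 is not reported here by itself. The genes, lists and rules were chosen with earlier results of these data known. Of the 39 genes, 36 matched RefSeq by accession and 3 by symbol. Left-out arrays leave 1 array in a group, assumed to vary like the other groups. The alternatives were the brightest probe, outlier spots kept, loess after normexp (offset 50), only spots well above background, arrays scaled to one spread, the deposited matrix, the replicate block, fewer arrays in the fit and a 2.5-fold threshold. The same probes on both arrays and the scan batch as a block were added after seeing the data. Promoter stretches are from RefSeq on GRCm38.p6; probe and protein sequences are not shown here.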

Additional observations from a re-analysis of the deposited data

Results flagged for a closer look

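The response of Map3k11 to 2 h of NaCl differed between wild type cells with and without SB203580 by 0.89 on the log2 scale (0.887 ± 0.176, SE; limma adjusted p = 0.0212), by a test of the difference of the differences. The same difference was 0.82 at 8 h (adjusted p = 0.0569, and 0.0283 with the replicate block), 0.52 for anisomycin (0.155) and 0.58 for TNFα (0.132). These share the arrays of SB203580 alone, at -0.86 and -0.54. They also hold any deviation due to the pool or the dyes, which enters through the ratio without SB203580. Map3k11 lay below the pool in 12 of its 14 measured groups, so such a deviation cannot be told apart from these differences. Without replicate 1 of that group the value at 2 h was 0.73 (adjusted p = 0.215). No group had enough arrays for a test of single arrays that stand apart.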

How the results depend on the processing

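Counts of called genes of the set changed with the processing. After anisomycin the 2 calls became 6 with normexp, 12 in the series matrix, 4 by the brightest probe, 12 with outlier spots kept, 4 with scaled arrays, 6 with the replicate block, 4 with fewer arrays in the fit and 0 at 2.5-fold. After TNFα the 3 became 5 with normexp and with the replicate block, 11 in the matrix, 9 with outlier spots kept and 1 at 2.5-fold. At 45 min of NaCl the 3 became 11 in the matrix and with outlier spots kept, 6 with scaled arrays and with the block, 5 with the same probes on both arrays, and 0 at 2.5-fold. At 2 h the 5 became 8 in the matrix and by the brightest probe, 10 with outlier spots kept and 0 at 2.5-fold. At 8 h the 7 became 15, 12 and 0 in the matrix, with outlier spots kept and at 2.5-fold. With SB203580 alone the 10 became 18 with outlier spots kept, 5 with scaled arrays and 0 at 2.5-fold, and in untreated knockout cells the 6 became 11 in the matrix, 10 with outlier spots kept, 1 with fewer arrays and 0 at 2.5-fold. Leaving out 1 array gave 1 call after anisomycin, 1 to 2 after TNFα, 0 to 1 at 45 min and at 2 h of NaCl, 4 to 9 at 8 h, 0 to 12 with SB203580 alone and 0 to 2 in untreated knockout cells.

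The differences with SB203580 gave 0 calls under every alternative. Knockout minus wild type gave 1 call by the brightest probe. No count is given for the scan batch as a block or for fits without 1 array, where a group can rest on 1 array. The 1 call of knockout stress against untreated became 2 in the matrix, by the brightest probe, with spots well above background, with outlier spots kept, with the same probes, with the replicate block and at 2.5-fold, and 0 with fewer arrays, with 0 to 1 without 1 array. From 2 h to 8 h of NaCl the 3 became 8 in the matrix, 7 with outlier spots kept, 5 with the replicate block, and 0 with fewer arrays and at 2.5-fold (0 to 2 without 1 array), and from 45 min the 1 became 6 in the matrix, 2 by the brightest probe, 5 with outlier spots kept, 2 with the block, and 0 with fewer arrays and at 2.5-fold (0 to 1). The cause was not tested.

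Of single called values, 2 changed sign, both by the brightest probe: Mapk9 at 8 h of NaCl to 0.03 and Mapk8 in untreated knockout cells to 0.072. The replicate block kept 91 calls and lost 2, both of Map2k1ip1. Against the pool, 47 of 87 calls held under all alternative fits that kept every array, the 2.5-fold threshold aside. Outlier spots kept moved the median of all genes to -0.05 and that of 1 array by 0.12, the largest shift of any setting run. Spots near background, as for Mapk1ip1, and saturated ones, as for Mapk8ip1, leave the sizes uncertain.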
